A study of Mus musculus with 21 samples.

Results

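H19, Igf2, Afp, Gpc3, Dlk1 and Igf2bp3 are genes of the fetal liver that are mostly silent in the adult organ. They were followed here through 21 mouse RNA-seq libraries in 7 groups of 3. The 6 genes were taken by symbol, and each matched 1 row of every deposited table, that is 6 of 54532 genes in the CCl4 table, 6 of 34280 in the TAA table and 6 of 54532 in the hepatocyte table. They were chosen from measured values of these libraries, and the record does not say which values. Their comparisons with oil are therefore given as a description without a p-value. The p-values of the other comparisons are no independent evidence.

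The study's title concerns STING, a DNA-sensing adaptor, and the NLRP3 inflammasome in hepatocytes of fibrotic liver. In the CCl4 table, wild-type livers given oil were set beside wild-type livers given carbon tetrachloride (CCl4), a hepatotoxin, and beside CCl4 livers labelled Sting knockout. All 9 received intraperitoneal injections, for 6 weeks by the sample labels, while the design text gives 8 weeks for CCl4. In the TAA table, all 6 livers had 8 weeks of intraperitoneal thioacetamide (TAA), another hepatotoxin. There 3 livers were wild type and 3 carried a hepatocyte-specific Nlrp3 deletion, whose Cre driver the labels do not name. In the hepatocyte table, primary mouse hepatocytes had 1 µg/mL LPS for 6 h and 10 µM nigericin for 30 min, without or with the NLRP3 inhibitor MCC950 (10 µM, added 2 h before). The labels give no strain, age or sex, and they do not state whether each replicate was its own animal or culture.

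In fetal liver, hepatoblasts express this program at high level and shut it off around birth. Igf2 encodes a growth factor that signals through the IGF1 and insulin receptors. H19 is a non-coding RNA that lies beside it in an imprinted domain, where H19 is read from the maternal and Igf2 from the paternal copy. Afp encodes alpha-fetoprotein, the fetal counterpart of serum albumin, and Gpc3 a cell-surface heparan sulfate proteoglycan. Dlk1, paternally expressed, encodes a membrane protein related to Notch ligands, and Igf2bp3 an RNA-binding protein that binds IGF2 mRNA. Several of them return in regenerating liver and in hepatocellular carcinoma, where AFP and GPC3 are clinical markers.

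On mm10, as the deposited tables give it, H19 (ENSMUSG00000000031, a lincRNA) lies at chr7:142575529-142578143 on the minus strand and Igf2 (ENSMUSG00000048583) at chr7:142650766-142666816 on the same strand. Afp (ENSMUSG00000054932) lies at chr5:90490737-90508907 on the plus strand, next to the albumin gene. Gpc3 (ENSMUSG00000055653) spans chrX:52272426-52613950 on the minus strand. Dlk1 (ENSMUSG00000040856) is at chr12:109452823-109463336 on the plus strand, and Igf2bp3 (ENSMUSG00000029814) at chr6:49085223-49214957 on the minus strand. The H19 transcript also holds the hairpin of Mir675 in an exon, and both mature miRNAs are shown because they are the part of H19 with a known sequence-specific activity. Capitals mark the seed, bases 2 to 8, and the sequences are those of RefSeq on GRCm38.p6.
mmu-miR-675-5p (chr7:142577112-142577133, minus strand): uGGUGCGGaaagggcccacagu
mmu-miR-675-3p (chr7:142577078-142577099, minus strand): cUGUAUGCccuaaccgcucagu
The seeds differ, and these libraries do not measure mature miRNAs. Mir675 itself held 0 reads in every library of the CCl4 and hepatocyte tables and at most 1 count in a TAA library.

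Afp and Gpc3 were the genes with the most reads in the CCl4 table, and the bases before their RefSeq start sites differ in composition. The 250 bases before each RefSeq start site are shown, 5′ to 3′ on the gene's strand, with matches to 5 motifs in capitals.
Afp (GRCm38.p6, chr5:90490464-90490713, plus strand): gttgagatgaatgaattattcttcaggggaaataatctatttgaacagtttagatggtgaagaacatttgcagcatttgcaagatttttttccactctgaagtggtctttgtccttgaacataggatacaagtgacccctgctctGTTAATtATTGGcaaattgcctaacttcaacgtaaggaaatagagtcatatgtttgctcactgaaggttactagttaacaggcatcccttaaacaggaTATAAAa
Gpc3 (GRCm38.p6, chrX:52613975-52614224, minus strand): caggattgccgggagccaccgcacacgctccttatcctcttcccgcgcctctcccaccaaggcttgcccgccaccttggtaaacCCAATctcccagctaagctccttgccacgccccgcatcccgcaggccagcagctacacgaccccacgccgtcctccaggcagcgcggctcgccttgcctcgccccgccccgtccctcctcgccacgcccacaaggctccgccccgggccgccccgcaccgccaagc
The Afp stretch was 36% G or C with 1 CpG, and the Gpc3 stretch was 71.6% G or C with 25 CpG. Of 5 motifs searched on both strands, the core promoter motif TATAAA is in 13.6% of 32851 RefSeq promoters of 300 bases. The HNF1 half-site motif GTTAAT is in 7.1% of these promoters, and the nuclear receptor half-site AGGTCA is in 16.3%. The AP-1 motif TGANTCA is in 7.81%, and the motif CCAAT, bound by NF-Y, is in 37.4%. Afp held the core promoter motif, the HNF1 half-site and, on the other strand, the NF-Y motif, and Gpc3 held the NF-Y motif alone. The TATAAA match lies at -7 from the RefSeq start of Afp, and the deposited gene start (chr5:90490737) lies downstream of that start. Positions relative to the start used in these livers are therefore not known. A match describes letters in this window and is not a measured binding site.

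Library depth was 14353483 to 16684832 reads in the CCl4 table, 32096879 to 68913793 counts in the TAA table and 14883710 to 17157586 reads in the hepatocyte table. Levels are FPKM, fragments scaled by gene length and by a factor for each library, and each table was normalized separately. In the CCl4 table that factor was not read depth alone, as FPKM times length, summed over genes, differed between libraries. The sum was 1.10e+09 to 1.34e+09 in oil, 8.57e+08 to 9.17e+08 in wild-type CCl4 livers and 8.23e+08 to 1.22e+09 in those labelled Sting knockout. FPKM ratios there differ from read ratios. Sting1 was not lost in the libraries labelled Sting knockout, with 3.42, 1.98 and 5.28 FPKM against 6.10, 5.15 and 4.74 in wild type under CCl4, so the genotype there is given only as labelled. Nlrp3 had 36, 24 and 28 counts in wild type and 23, 105 and 83 in the deletion-labelled TAA livers. Whole liver also holds cells outside the deletion, and the count does not check it. The deletion-labelled livers had 5.63 to 12.5% mitochondrially encoded counts against 27.8 to 34.7% in wild type, and summed hepatocyte markers of 27180 to 34540 FPKM against 10170 to 11120. Alb, the largest part of that sum, was 20564 ± 4804 against 5272 ± 377 FPKM. Single markers differed: edgeR called 2 of the 10, where it called 1.73% of all genes. Their log2 fold changes ran from 0.20 for Apoa1 to 1.85 for Cps1. Replicate 1 of the deletion-labelled livers correlated with the wild-type libraries at 0.919 to 0.941 and with its own replicates 2 and 3 at 0.902 and 0.854. In whole liver, a change in the number of cells of a type and a change in RNA per cell cannot be told apart.

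CCl4 livers held more Afp, Gpc3, H19 and Dlk1 RNA than oil livers, in every wild-type library, from low levels that stayed low for H19 and Dlk1. Mean Afp FPKM was 3.86-fold and mean Gpc3 FPKM 2.05-fold that of oil. Group reads were 784 against 143 for Afp and 354 against 123 for Gpc3. Igf2 reads were near 0 throughout, and Igf2bp3 was no higher. For 4 of the 6 genes the wild-type CCl4 values all lay above the oil values, where 16.6% of the 11511 genes tested did so. The tested genes had a mean of at least 1 FPKM, which only Afp and Gpc3 of the 6 reached.

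Afp measured 1.15, 1.04 and 1.06 FPKM in oil (1.08 ± 0.0585, mean ± SD, n = 3), and 3.81, 2.10 and 6.64 FPKM in wild-type CCl4 livers (4.18 ± 2.29). In the libraries labelled Sting knockout it measured 3.97, 22.9 and 3.56 FPKM (10.1 ± 11). Neither CCl4 group overlapped oil, where 17.8% of tested genes lay wholly higher in the labelled knockouts, and replicate 2 of the labelled knockouts stood 3.44-fold above the next library. On the log2(FPKM + 1) scale the fold change over oil was 1.22 in wild type (SE 0.55, limma). It was 1.97 in the labelled knockouts (SE 0.55), and 1.19 without their replicate 2.

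Gpc3, the proteoglycan, measured 1.15, 1.45 and 0.870 FPKM in oil (1.16 ± 0.290) and 2.62, 1.71 and 2.76 FPKM in wild-type CCl4 livers (2.36 ± 0.567). The libraries labelled Sting knockout held 1.23, 2.61 and 16.5 FPKM (6.77 ± 8.42). Wild-type CCl4 values lay above all oil values, while replicate 1 of the labelled knockouts fell within the oil range and replicate 3 was 5.96-fold above the next library. The log2 fold change over oil was 0.64 in wild type and 1.28 in the labelled knockouts (SE 0.58 for each). Without replicate 3 of the labelled knockouts the second value was 0.41, and edgeR on the recovered reads gave 2.57.

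H19, the non-coding RNA, had 0, 4 and 0 reads in the oil livers, which is 0, 0.124 and 0 FPKM. Wild-type CCl4 livers held 19, 8 and 27 reads (0.425, 0.170 and 0.590 FPKM), and the labelled knockouts 9, 32 and 18 reads (0.212, 1.01 and 0.378 FPKM). Every CCl4 library was above every oil library. The means were 9.54-fold and 12.8-fold that of oil, and these ratios rest on 4 oil reads in 1 library.

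Dlk1, the Notch-ligand relative, had 0 reads in all 3 oil livers and 5, 4 and 12 reads in the wild-type CCl4 livers (0.0486, 0.0371 and 0.114 FPKM). The mean was at least 4.79-fold higher than a floor of 3 reads over the oil group (0.0139 FPKM). The labelled knockouts held 0, 18 and 1 reads, so their mean, at least 6.12-fold above that floor, rests on replicate 2. This floor covers counting error only.

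Igf2 had 0 reads in every oil library, 0, 1 and 1 in wild-type CCl4 livers and 0, 0 and 1 in the labelled knockouts. At this depth no difference in the growth factor's own RNA was detectable. Igf2bp3, the RNA-binding protein, measured 0.0483, 0.0281 and 0.0459 FPKM in oil and 0.00674, 0.00642 and 0.0659 FPKM in wild-type CCl4 livers. The labelled knockouts held 0.0142, 0 and 0.0444 FPKM, and all 3 groups overlapped. Its exons share 18.7% of their bases with Malsu1 on the opposite strand, and the labels do not state whether counting used strand. In counted reads, H19 and Igf2, neighbours in 1 imprinted domain, stood at different levels per length under CCl4. H19 had 54 and 59 reads in the wild-type and labelled-knockout groups against 2 and 1 of Igf2, the longer transcript model. Gm49394, an overlapping gene on the same strand, shares 62.8% of the Igf2 exon bases and had 0 reads in every one of these libraries. Reads on both genes may be counted for neither, so Igf2 may be undercounted, which was not tested.

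**Figure D1:**
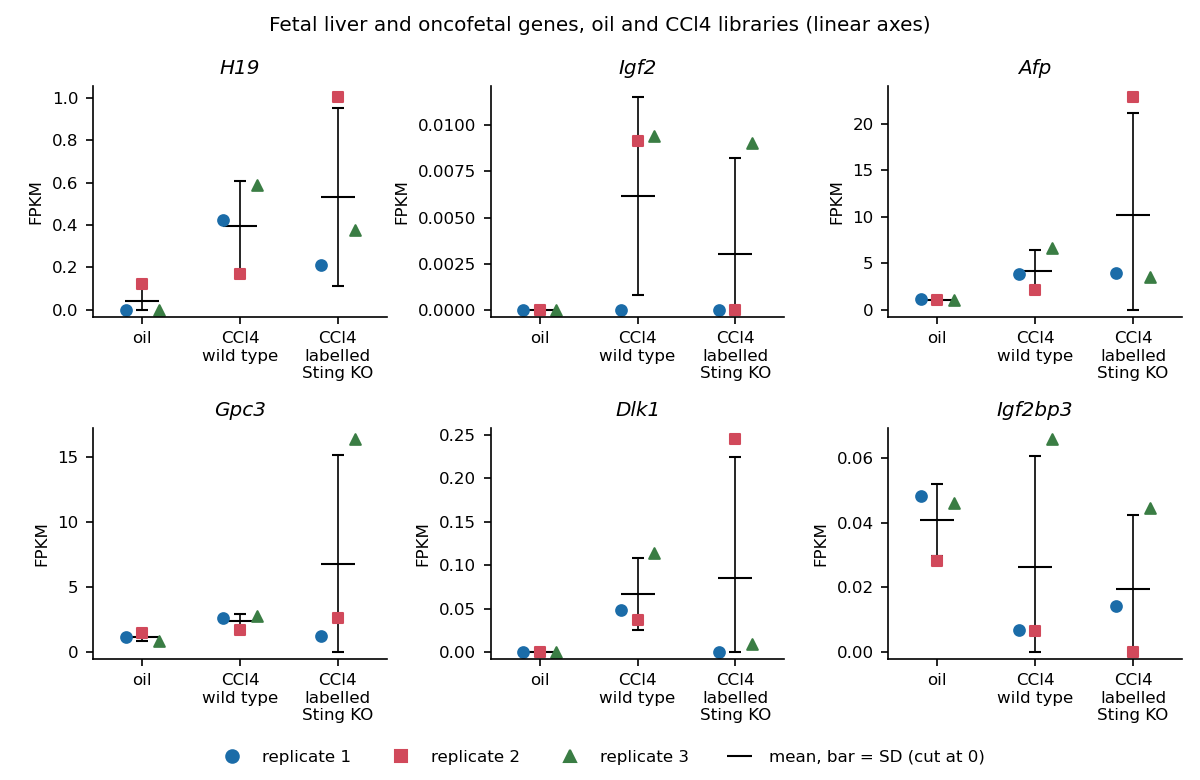
FPKM of the 6 genes in each oil and CCl4 library (n = 3 per group), with the group mean and SD, on linear axes that differ between panels. Afp in replicate 2 and Gpc3 in replicate 3 of the libraries labelled Sting knockout stand at 22.9 and 16.5 FPKM, far above their own groups.

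Between the labelled knockouts and wild type under CCl4, none of the 6 genes separated. Groups overlapped for all 6, as for all but 5.13% of tested genes, and limma called 0 of the 2 genes tested, where 0% of all 11511 genes were called. At an unadjusted p under 0.05 the counts were 0 of these 2 genes and 366 of all genes (3.18%), and edgeR on recovered reads also called 0 genes. The log2 fold change was 0.75 for Afp (-0.47 to 1.97, limma adjusted p = 0.761) and 0.64 for Gpc3 (-0.65 to 1.93, adjusted p = 0.762). Over the alternatives the adjusted p ranged from 0.398 to 1 for Afp and from 0.633 to 1 for Gpc3. Exact two-sided permutation tests of FPKM gave p = 0.8 for H19, 0.4 for Igf2, 1 for Dlk1 and 0.8 for Igf2bp3, each unadjusted, where 3 against 3 libraries cannot go below 0.1. Without 1 library both directions turned: Afp went to -0.025 without replicate 2 and Gpc3 to -0.23 without replicate 3 of the labelled knockouts. With intervals that reach 1.97 and 1.93, the tests do not show that the groups were alike. As the 6 were chosen with earlier results known, these p-values are no independent evidence.

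The high libraries were not the same for each gene. Replicate 2 of the labelled knockouts was the highest of the 9 libraries for H19, Afp and Dlk1, and 26.4% of all genes were also highest there. Replicate 3 was the highest for Gpc3, where 4.1% of genes were. Within the labelled knockouts the highest value was 5.76 times the median for Afp and 6.29 times for Gpc3. Over 11539 genes of at least 1 FPKM this ratio had a median of 1.23, and 0.641% of genes reached the Afp value and 0.494% the Gpc3 value.

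Genes with the most similar pattern over the 9 libraries were sought by Pearson correlation of log2(FPKM + 1) among 10411 named genes. They separated Gpc3 from H19 and Afp. Dlk1, Igf2 and Igf2bp3, at lower levels, were not compared. H19 was most like Afp (0.96), the splicing factor gene Prpf38a (0.959) and the immunoglobulin light chain gene Iglc1 (0.95). Afp was most like Prpf38a (0.983), Rnaseh2b, which encodes a subunit of RNase H2 (0.978), and Rad51b, a DNA repair gene (0.977). Gpc3 was most like Cldn15, a claudin (0.945), Sulf1, a heparan sulfate 6-O-endosulfatase (0.94), and Igfbp5, an IGF-binding protein (0.94). Igfbp5 stood at 49.7 FPKM in replicate 3 of the labelled knockouts and at 2.29 to 7.55 FPKM in the other 8 libraries. Each of these sets shares its highest library with the gene it resembles, replicate 2 of the labelled knockouts for H19 and Afp and replicate 3 for Gpc3, and within a library all values share depth and scaling.

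Replicate 3 of the labelled knockouts also held the most RNA of mesothelial markers. Their summed level (Msln, Upk3b, Krt14 and Wt1, 4 of 4 detected) was 54.7 FPKM there, 1.73 to 4.37 FPKM in oil, 3.92 to 11.7 FPKM in wild-type CCl4 livers, and 4.34 and 15.0 FPKM in the other labelled knockouts. Msln, mesothelin, was 32.1 FPKM and Upk3b, uroplakin 3B, 18.3 FPKM in it. The part of these cells in the Gpc3 value was not tested. Summed proliferation markers were 1.52 to 2.42 FPKM in oil, 49.1 to 94.8 FPKM in wild-type CCl4 livers and 51.0 to 76.2 FPKM in the labelled knockouts. Their part in the Afp and H19 values was not tested either.

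Among genes that act on or beside the 6, 3 liver transcription factors of the Afp list were called lower in wild-type CCl4 livers. There 3 other hepatoblast genes and 3 fetal-type enzymes were called higher. Counts below are genes called by limma in wild-type CCl4 livers against oil, where 9.19% of all genes were called higher and 6.15% lower and the median log2 fold change of all genes was -0.08. These lists were chosen with earlier results known. The number of calls in a list moved with the replicate number as a block, a fit in which same-numbered livers are compared, and with single livers left out. Of all genes, 19.3% were called with that block, 18.7% by edgeR on recovered reads, and 28.4% reached an unadjusted p under 0.05.

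Of 11 tested regulators of Afp, 0 were called higher and 3 lower, and the list's median was -0.60. The factors were Cebpa (267 ± 41.4 to 78.5 ± 44 FPKM), Foxa2 (17.9 ± 9.04 to 6.57 ± 0.390 FPKM) and Foxa1 (8.58 ± 2.08 to 3.33 ± 1.04 FPKM), all liver transcription factors. Without oil replicate 1 the count was 0, and 7 of the 11 reached an unadjusted p under 0.05. The postnatal repressors of Afp were not called: Zhx2 measured 5.10, 5.47 and 4.98 FPKM in oil and 3.56, 3.995 and 2.001 FPKM in wild-type CCl4 livers (adjusted p = 0.0853 by limma), with no overlap. Zhx2 in the labelled knockouts measured 3.12, 3.49 and 3.53 FPKM. Zbtb20, the other known repressor, was 3.81 ± 0.883 FPKM in oil and 3.68 ± 0.674 FPKM in wild-type CCl4 livers, and Zfhx3 0.481 ± 0.0756 and 0.496 ± 0.0469 FPKM. In the labelled knockouts Zbtb20 was 1.96 ± 1.13 FPKM, not called against oil (limma adjusted p = 0.101). Of the albumin family beside Afp, 0 of 3 genes were called by limma, at an unadjusted p under 0.05 or by edgeR on recovered reads, and Alb was 41690 ± 8995 FPKM in oil and 31670 ± 10755 FPKM in CCl4.

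In the IGF axis, 0 of 13 tested genes were called higher and 1 lower, with a median of 0.05. Igfals, the acid-labile subunit that keeps IGFs in the blood, fell from 64.2 ± 1.15 to 22.4 ± 8.22 FPKM. Igf1, the main postnatal ligand, was 74.7 ± 17.2 and 49.6 ± 11.2 FPKM, and the receptors Igf1r and Igf2r were 0.269 ± 0.110 and 0.366 ± 0.0341, and 6.21 ± 0.238 and 6.63 ± 2.02 FPKM. With the replicate block 5 of the 13 were called, and 3 without CCl4 replicate 3. The binding proteins differed in opposite directions without passing the test: Igfbp1 was 35.7 ± 17 FPKM in oil and 176 ± 130 in CCl4, and Igfbp2 250 ± 68.6 and 84.8 ± 49.8 FPKM. In the labelled knockouts, where 8% of all genes were called higher and 5.91% lower, Igfbp7 was called higher than oil (92.6 ± 12.2 to 218 ± 47.3 FPKM) and Igfals and Insr, the insulin receptor, lower. Without any 1 oil liver, or without replicate 2 of the labelled knockouts, 0 genes of this list were called higher there.

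Of 13 tested imprinted genes 2 were called higher and 1 lower, with a median of 0.23. Grb10, a growth factor receptor adaptor, rose from 0.607 ± 0.132 to 2.04 ± 1.04 FPKM and Sgce, a sarcoglycan, from 0.537 ± 0.192 to 1.78 ± 0.309 FPKM, while Slc38a4, an amino acid transporter, fell from 292 ± 53.8 to 141 ± 19 FPKM. Without oil replicate 1, 2 or 3, or CCl4 replicate 2 or 3, the count was 0. Meg3, the maternally expressed RNA beside Dlk1, was 0.0145 to 0.0569 FPKM in oil and 0.113 to 0.360 FPKM in wild-type CCl4 livers. Plagl1, known to bind the H19 and Igf2 domain, was 0.0838 to 0.277 FPKM in oil and 0.456 to 1.29 FPKM in CCl4. Both lay below the filter. Cdkn1c was 0.912 ± 0.256 and 1.28 ± 0.582 FPKM. Of the 2 tested neighbours of H19 and Igf2, 1 was called, Lsp1, a leukocyte protein (0.775 ± 0.283 to 3.50 ± 1.02 FPKM).

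Of the other hepatoblast and oncofetal genes 3 of 15 were called higher and 0 lower, with a median of 1.32. The count was 2 without oil replicate 1 or 2 or CCl4 replicate 3, 5 without CCl4 replicate 1, and 11 of 18 with edgeR on recovered reads. They were Golm1, a Golgi protein raised in liver disease (1.03 ± 0.273 to 8.63 ± 1.26 FPKM), Spp1, osteopontin (26.1 ± 4.01 to 189 ± 122 FPKM), and Scd2, a desaturase of fetal liver (2.28 ± 0.404 to 9.92 ± 2.65 FPKM). Spp1 and Krt19 are also cholangiocyte markers, whose sum was 36.2 to 42.8 FPKM in oil and 62.7 to 293 FPKM in wild-type CCl4 livers. That share was not tested. In the labelled knockouts 6 of 15 were called higher than oil, and 2 without oil replicate 1 or 3 or replicate 1 of the labelled knockouts, and 4 of 16 without oil replicate 2. Among the 6 was Spink1, which measured 0.0604 ± 0.105 FPKM in oil and 6.07 ± 6.49 FPKM there.

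Of 8 fetal-type isozymes 3 were called higher and 1 lower, with a median of 0.93, and of 6 adult-type isozymes 0 higher and 2 lower, with a median of -1.04. The replicate block called 6 and 4 of them, and leaving out any 1 oil liver called 2 and 1. Pkm, the pyruvate kinase of fetal and proliferating cells, rose from 5.07 ± 0.624 to 30.7 ± 10.8 FPKM while its liver form Pklr fell from 97.2 ± 23.3 to 28.2 ± 7.40 FPKM. Pygb, brain-type glycogen phosphorylase, rose from 2.00 ± 0.546 to 8.05 ± 1.21 FPKM, and Aldoc fell from 5.62 ± 0.657 to 2.78 ± 0.877 FPKM. Pkm is also expressed in non-parenchymal cells, and summed stellate cell and myofibroblast markers were 18.3 to 20.9 FPKM in oil and 125 to 352 FPKM in wild-type CCl4 livers. Summed macrophage markers were 81 to 122 and 233 to 346.5 FPKM, and neutrophil markers 3.57 to 15.4 and 44.2 to 102 FPKM. Endothelial markers were 47 to 54 and 47 to 53 FPKM. The part of these cells was not tested.

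Of the glypican genes and their modifiers, a list that holds no member of the 6, 0 of 7 were called by limma, 2 reached an unadjusted p under 0.05, and 1 was called with the replicate block, without CCl4 replicate 2, or, of 8, by edgeR on recovered reads. The median was -0.39. Gpc4 was 33.6 ± 5.68 FPKM in oil and 25.6 ± 5.83 in CCl4, and Gpc1 2.21 ± 0.645 and 2.21 ± 0.915 FPKM. In the Notch list 1 of 7 was called higher, Adam17, a protease that sheds DLK1 (3.78 ± 0.283 to 7.58 ± 1.99 FPKM). Of the Lin28 and let-7 list, 0 of 3 tested genes were called by limma or at an unadjusted p under 0.05, and edgeR on recovered reads called 1 of 6. Lin28b had 0 reads in all 9 libraries, Igf2bp1 had none in oil or wild-type CCl4 livers, and Myc was 2.06 ± 1.02 and 3.33 ± 1.14 FPKM. The paralog Igf2bp2 measured 0.178, 0.258 and 0.266 FPKM in oil, 0.766, 0.928 and 1.01 FPKM in wild-type CCl4 livers and 1.16, 1.20 and 1.21 FPKM in the labelled knockouts, so its 3 groups did not overlap. Hmga2 was 0.0261 ± 0.0167 FPKM in oil and 0.142 ± 0.0748 FPKM in wild-type CCl4 livers.

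**Figure D2:**
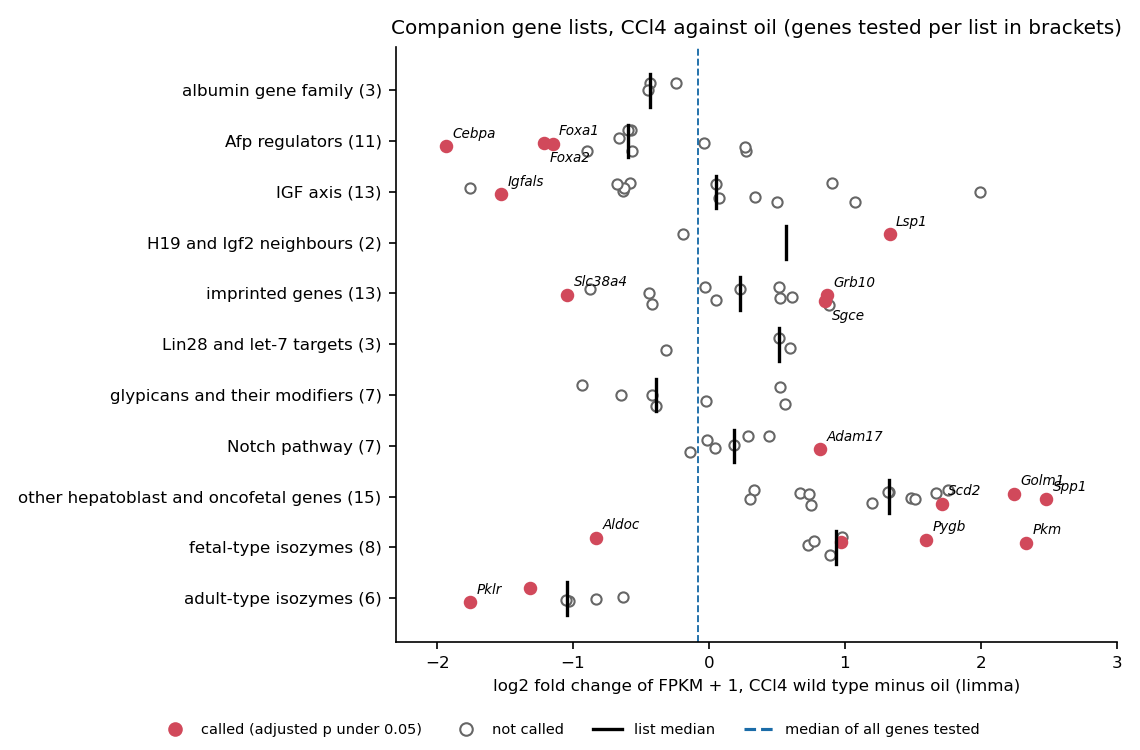
Log2 fold change of each tested gene of the 11 companion lists in wild-type CCl4 livers against oil (limma, log2 of FPKM + 1), with called genes filled and most of them named, list medians as black bars and the median of all genes as a dashed line. Other hepatoblast genes and fetal-type isozymes centre above 0 (1.32 and 0.93), and adult-type isozymes and Afp regulators below it (-1.04 and -0.60).

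Under TAA, H19 was higher in every deletion-labelled liver than in any wild-type liver, with a mean FPKM 26.7-fold that of wild type. FPKM is not TMM-scaled, and on TMM-scaled counts the log2 fold change was 4.34. Gpc3 was high in 2 of the 3 deletion-labelled livers, and Igf2 was high in 1. Afp, Dlk1 and Igf2bp3 overlapped between the groups. edgeR's quasi-likelihood test on counts called 0 of the 6, where 1.73% of all 18619 genes were called. At an unadjusted p under 0.05 there were 2 of the 6, H19 and Gpc3, where 28.9% of all genes were, and DESeq2 called the same 2, where it called 16.9% of the 22379 genes it tested. In 1 of the 6 genes, H19, every deletion-labelled value lay above every wild-type value, as it did for 18.9% of genes. The adjusted p-values below are over all genes, and as the 6 were chosen with earlier results known, they are no independent evidence.

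H19 measured 0.91, 0.70 and 1.6 FPKM in wild-type TAA livers (128, 91 and 157 counts) and 16.8, 65.4 and 3.39 FPKM in the deletion-labelled livers (2688, 11153 and 689 counts). All 3 deletion-labelled livers were higher, but they differed from each other by more than an order of magnitude. The log2 fold change of TMM-scaled counts was 4.34 (SE 0.95, 2.14 to 6.53), with an edgeR adjusted p = 0.0519. Alternatives ranged from 0.00102 with DESeq2 to 0.196, and 4 of 12 called it. Without replicate 2 of the deletion-labelled livers the fold change was 2.97 (adjusted p = 0.196 by edgeR), and without replicate 1 it was 4.58 (adjusted p = 0.009). Under the same settings the number of all genes called moved from 322 to 2 and to 7555.

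Gpc3 measured 0.81, 0.76 and 0.98 FPKM in wild type and 0.98, 14.1 and 3.81 FPKM in the deletion-labelled livers (171, 2622 and 844 counts). Replicate 1 of the deletion-labelled livers lay at the wild-type level and replicates 2 and 3 above it. The log2 fold change was 2.44 (0.63 to 4.26, edgeR adjusted p = 0.0954). It was 1.13 without replicate 2 (adjusted p = 0.312) and 2.95 without replicate 1 (0.00275), and over all alternatives the adjusted p lay between 0.00275 and 0.312. Summed mesothelial markers here were 0.59 to 1.45 FPKM in wild type and 0.69 to 1.70 FPKM in the deletion-labelled livers, highest in replicate 2.

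Afp, the most abundant of the 6 in wild-type TAA livers, measured 10.8, 5.25 and 16.1 FPKM there and 14.2, 28.4 and 16.8 FPKM in the deletion-labelled livers. The groups overlapped through replicate 3 of the wild type and replicate 1 of the other group. The log2 fold change was 0.54 (-0.28 to 1.36, edgeR adjusted p = 0.345, 0.126 to 0.738 over the alternatives). Dlk1 measured 0.09, 0.06 and 0.18 FPKM and then 0.11, 0.32 and 0.07 FPKM, a log2 fold change of 0.21 (-1.42 to 1.85, adjusted p = 0.866), and -0.57 without replicate 2 of the deletion-labelled livers. Igf2bp3 measured 0.17, 0.04 and 0.09 FPKM and then 0.06, 0.08 and 0.03 FPKM, a log2 fold change of -1.16 (-2.80 to 0.47, adjusted p = 0.309).

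Igf2 was counted in the tables beside Gm49394, a read-through gene on the same strand. Its exons cover 62.8% of the Igf2 exon bases in GENCODE M21, so reads of one may be given to the other or to neither. Igf2 itself had 0, 0 and 8 counts in wild-type TAA livers and 11, 408 and 1 in the deletion-labelled livers. Gm49394 had 20, 44 and 37 counts and then 171, 0 and 124. The library with the most Igf2 counts thus had none for Gm49394. Summed over both, counts were 20, 44 and 45 in wild type and 182, 408 and 125 in the deletion-labelled livers, or 0.438, 1.39 and 1.44 against 3.23, 6.00 and 1.65 CPM, counts scaled by library size and TMM factor. The sum did not overlap between groups, by a narrow margin (1.65 against 1.44 CPM), whereas Igf2 alone did. Of all genes tested, 18.9% lay wholly higher in the deletion-labelled livers. For Igf2 alone the log2 fold change was 4.61 (-0.38 to 9.59, edgeR adjusted p = 0.200), a value that rests on replicate 2 and on wild-type counts at or near 0. The sum was formed after its values were seen and has no test. In the CCl4 and hepatocyte tables Gm49394 had 0 reads in every library.

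**Figure D3:**
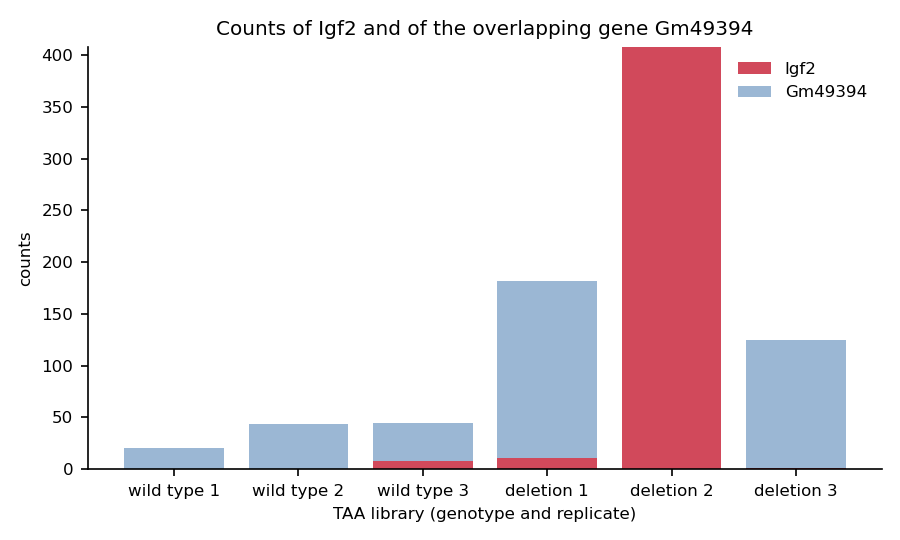
Counts of Igf2 and of the overlapping gene Gm49394, stacked, in each TAA library. The 408 counts of deletion replicate 2 all lie on Igf2 and those of deletion replicates 1 and 3 mostly on Gm49394.

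Replicate 2 of the deletion-labelled livers was the highest of the 6 TAA libraries for 5 of the 6 genes, all but Igf2bp3, where 23.1% of all genes were highest in it. It exceeded the next library 3.88-fold for H19, 3.69-fold for Gpc3 and 1.69-fold for Afp. Among genes of at least 1 FPKM in the group, 1.26% had a ratio of highest to median as large as that of H19, and 1.52% as large as that of Gpc3.

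**Figure D4:**
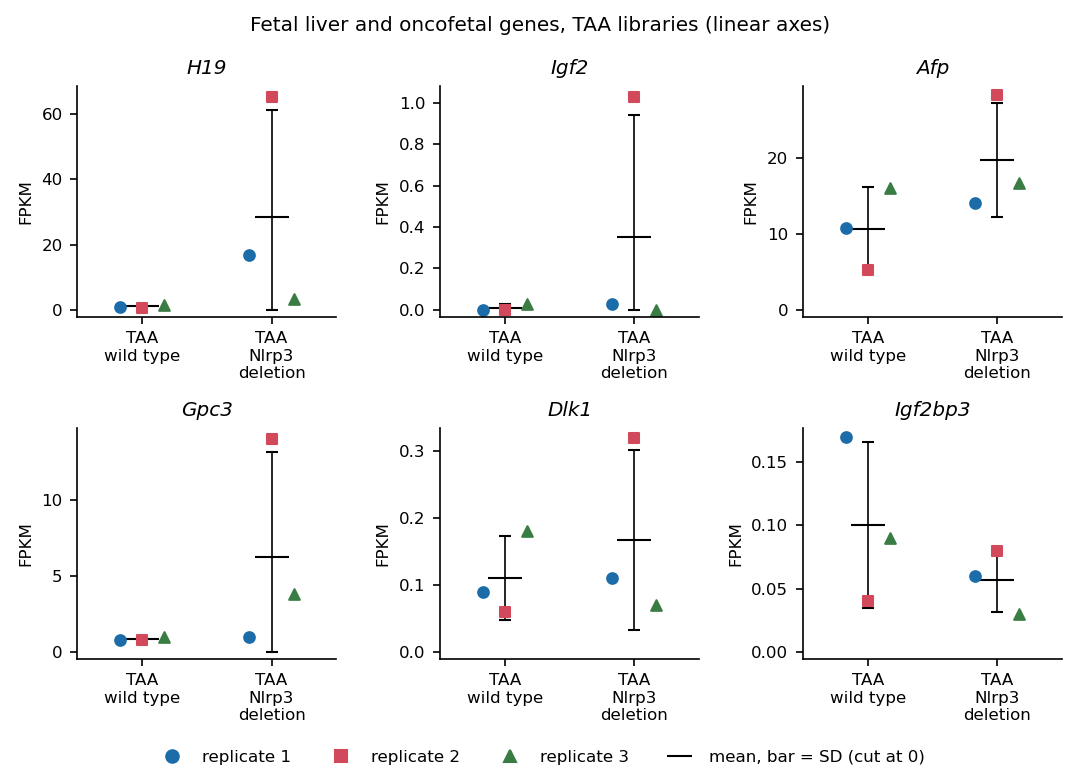
FPKM of the 6 genes in each TAA library (n = 3 per genotype label), with the group mean and SD, on linear axes that differ between panels. Deletion replicate 2 is the highest point for 5 of the 6 genes, and H19 in all 3 deletion-labelled livers lies above the wild type.

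Few companion genes were called between these genotypes, where 1.37% of all genes were called higher and 0.36% lower. Igfbp4, an IGF-binding protein, was higher in the deletion-labelled livers (51.0 ± 3.23 to 228 ± 77.6 FPKM, edgeR adjusted p = 0.0487), the 1 call among 14 tested IGF-axis genes. That p lies close to the threshold. The IGF-axis count was 0 with the replicate block and without any 1 library other than replicate 1 of the deletion-labelled livers. Without that library it was 6, where 7555 of all genes were called. edgeR called 0 of 12 Afp regulators, 26 imprinted genes, 20 other hepatoblast genes, 8 glypican genes and 9 genes of the Lin28 list. At an unadjusted p under 0.05 these counts were 4, 10, 5, 5 and 2, where 28.9% of all genes were under it. DESeq2 called 4 of 12, 9 of 32, 3 of 21, 0 of 10 and 1 of 11, where it called 16.9% of all genes. Without replicate 1 of the deletion-labelled livers edgeR called 6 of 12, 10 of 26, 9 of 21, 6 of 10 and 3 of 9. In that setting 7555 of all genes were called, against 322 with all libraries. Zhx2, the Afp repressor, measured 0.49, 0.35 and 0.59 FPKM in wild type and 0.89, 2.79 and 3.34 FPKM in the deletion-labelled livers, higher in the group where mean Afp was also higher (edgeR adjusted p = 0.0568). Meg3 was 7.38, 7.97 and 12.1 FPKM in wild type and 4.13, 3.59 and 0.50 FPKM in the deletion-labelled livers (edgeR adjusted p = 0.0953). Its groups stood in the opposite order to those of H19, while within the deletion-labelled livers both genes were lowest in replicate 3. Alb was 5272 ± 377 and 20564 ± 4804 FPKM (edgeR adjusted p = 0.0501), and the part of hepatocyte content in these values was not tested.

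In cultured hepatocytes only Afp of the 6 was above 0.1 FPKM. It measured 1.64, 2.24 and 1.59 FPKM with LPS and nigericin and 1.40, 1.52 and 2.18 FPKM with MCC950 added. The groups overlapped, and the log2 fold change was -0.07 (-0.40 to 0.26, limma adjusted p = 0.843, 0.717 to 0.983 over the alternatives), an interval that leaves out a doubling on that scale. Limma called 0 of the 1 gene tested, where 0% of all 9835 genes were called. At an unadjusted p under 0.05 the counts were 0 of this 1 and 1168 of all (11.9%), and edgeR on recovered reads also called 0.

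The other 5 genes were at the edge of detection in these cells. H19 had 0 reads in the 3 libraries without inhibitor and 1, 4 and 0 with it. Igf2 had 0 reads in all 6 libraries, Gpc3 had 2 in a single one, and Dlk1 had 2 in 1 library of one group and 4 in 1 of the other. Igf2bp3 was the exception in separation, with 7, 8 and 6 reads (0.0578, 0.0601 and 0.0447 FPKM) without and 3, 5 and 3 reads (0.0206, 0.0345 and 0.0207 FPKM) with MCC950. These groups did not overlap, as in 19.7% of tested genes, and the exact two-sided permutation test gave p = 0.1, the smallest it allows with 3 against 3. Hepatocyte markers summed to 38010 to 43910 FPKM here, and proliferation markers to 2.14 to 2.82 FPKM.

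**Figure D5:**
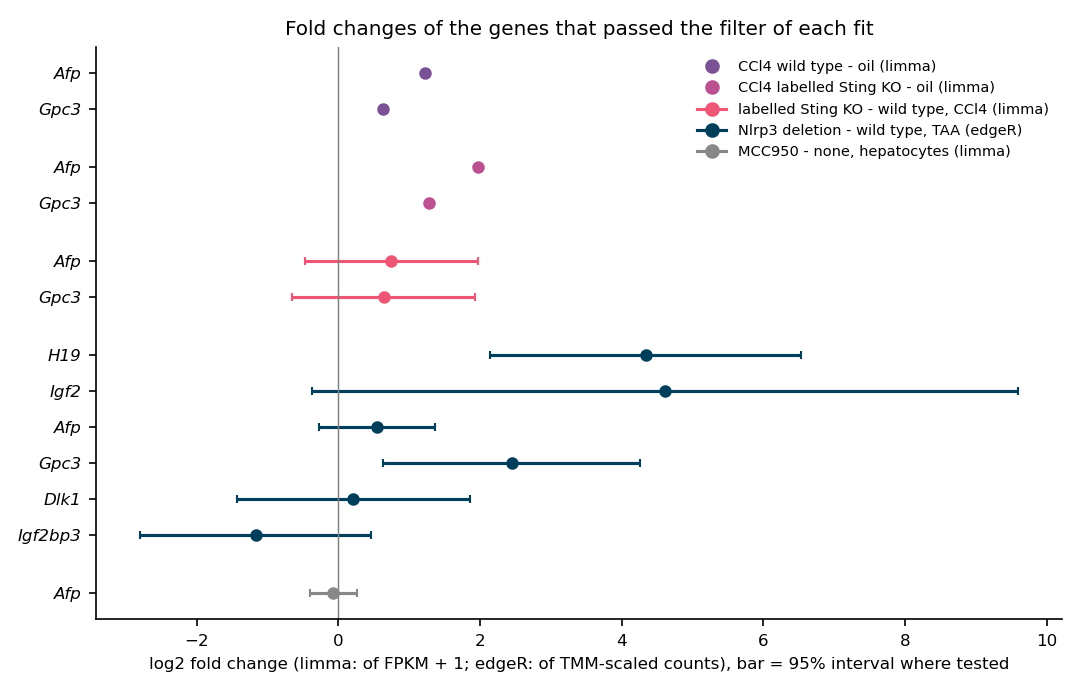
Log2 fold change and 95% interval of each of the 6 genes that passed the filter of a fit, for the 5 comparisons, with no interval drawn for the 2 comparisons with oil. Intervals for H19 and Gpc3 under TAA lie above 0 before adjustment, those of Afp and Gpc3 in the comparison of labelled knockouts with wild type span it, and the Afp interval in hepatocytes is the narrowest.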

How the data were processed

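RNA was measured by sequencing in 21 libraries. RNA was extracted with TRIzol and made into Illumina libraries, per the labels' protocols. The submitters' processing notes name HISAT2 2.2.1, featureCounts 1.5.0-p3 and mm10. Strand, RNA selection and annotation were not given in the sources used here. The authors deposited raw counts and FPKM in the TAA table, and FPKM alone with gene lengths in the other 2. There, FPKM times length came out as whole reads for 100% of values above 0 (within 0.05), which gave the reads per gene.

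Groups came from the labels, and tests ran only within a table. FPKM tables were fitted with limma 3.58.1 and its intensity trend, on log2(FPKM + 1), for genes whose mean reached 1 FPKM. A single fit held all 3 groups of the CCl4 libraries. Such fold changes understate those of low genes. TAA counts were fitted with edgeR 4.0.16 (quasi-likelihood, TMM, filterByExpr). R was 4.3.3. All tests were two-sided, p-values were adjusted by Benjamini-Hochberg over all genes tested, and called means an adjusted p under 0.05. Each p-value covers no more than the spread between these libraries, which may be technical. The fits were tested on simulated data.

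The 6 genes, the 23 lists of companion and marker genes (211 genes, of which 211, 204 and 211 matched the CCl4, TAA and hepatocyte tables) and the tests were chosen with earlier results of these data known. Named companion genes are the called genes of each list, at most 4 each way, and a set of regulators named whatever their test; some called genes are not reported here. Where several gene IDs share a symbol, the highest was used. Alternatives were pseudocounts of 0.1 and 0.5, filters, scaling, edgeR on recovered reads, DESeq2 1.42.0, limma for the TAA table, a replicate block and each library left out. The TAA fit without mitochondrially encoded genes was added after seeing the data.

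Deviations of same-numbered libraries correlated above 0.1 in every pair in CCl4 against oil (correlations 0.225, 0.319 and 0.516) and in the labelled knockouts against wild type (0.189, 0.176 and 0.120). No label ties same-numbered libraries together, so this comes from the data.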

Additional observations from a re-analysis of the deposited data

How the results depend on the processing

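Counts of all genes called, against which the 6 genes were read, depended on the setting. CCl4 against oil called 1766 genes, 877 with the filter raised to 5 FPKM, 2790 with edgeR on recovered reads (1969 higher and 821 lower, against 1058 and 708) and 936 to 1427 with 1 library left out, lowest without oil replicate 2. The labelled knockouts against oil called 1601, then 829, 2436 (1702 higher and 734 lower, against 921 and 680) and 781 to 1671, lowest without oil replicate 3. The labelled knockouts against wild type called 0, 2 without a filter and 0 to 1 with 1 library left out, and MCC950 likewise 0, 2 and 0 to 1. The Nlrp3 comparison called 322, 1 with RLE factors, 1593 without a filter, 3774 with DESeq2, 2642 with limma on FPKM (2426 higher and 216 lower, against 255 and 67), 2 with the replicate block, 486 without mitochondrially encoded genes and 0 to 7555 with 1 library left out, highest without deletion replicate 1. The median log2 fold change of all genes there was -0.04 with edgeR and 0.33 with limma on FPKM. The cause was not tested.

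With the replicate block, the paired fit, CCl4 against oil called 2227 genes, and the labelled knockouts against oil 2065. Same-numbered pairs correlated at 0.022, 0.179 and 0.093 in that comparison, at 0.046, 0.0053 and -0.018 in TAA and at 0.179, 0.218 and 0.085 in hepatocytes, so not every pair passed 0.1. The block left the hepatocyte count at 0.

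Directions of fitted values turned only with 1 library left out. Afp with MCC950 ranged from -0.19 to 0.034 and turned without replicate 2 of the group without inhibitor or replicate 1 of the other (0.011). Between labelled knockouts and wild type with 1 library left out, Afp ranged from -0.025 to 1.17 and Gpc3 from -0.23 to 1.25. Over all alternatives the upper ends were 1.29 for Afp and 1.56 for Gpc3. Under TAA Dlk1 ranged from -0.57 to 0.65. Of the other member values, 260 stayed within the spread of replicates or on the same side of the threshold, 38 moved by more, mostly with another pseudocount or edgeR for genes near 0, and 7 passed a threshold they had missed. Reads of 0 to 32 per library limit H19, Igf2 and Dlk1 in the CCl4 table.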
